A study of Mus musculus with 23 samples.

Results

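The comparison described here is that of nonloaded tibiae from mice given L-BAIBA for 5 days with nonloaded tibiae from mice given plain drinking water (vehicle). Its members are the 5 libraries that the sample labels assign to these groups in the single-bout experiment, out of 23 libraries in the series, with 2 libraries from L-BAIBA-treated and 3 from vehicle-treated mice. All mice were wild-type C57BL/6 males aged 5 months, L-BAIBA was given at 100 mg/kg/day in the water, and no transgene, deletion or other agent was involved. In every mouse of both groups the right tibia received a single bout of axial loading at 8.25 N, and the left tibia, which was not loaded, was taken 24 hours later. Nonloaded therefore means the contralateral leg of a loaded mouse. Each library pooled the left tibiae of 2 mice, so 4 treated and 6 control mice stand behind the comparison. The 5 pools held different mice. The spread behind the p values was estimated from these pools and from the 6 loaded libraries of the single-bout experiment. Some of the loaded libraries came from the same mice, and the fit treated them as independent.

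The amino acid L-BAIBA, in full L-β-aminoisobutyric acid, is made by contracting muscle from valine and released into the blood. Its receptor on osteocytes is the G protein-coupled receptor MRGPRD. Osteocytes, the cells embedded in mineralized bone, sense strain and secrete regulators of bone formation and phosphate balance such as sclerostin (*Sost*), DKK1 and FGF23. The question for this comparison was how bone transcription differs with L-BAIBA in the leg that was not loaded.

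RNA came from flushed cortical bone that had been digested with collagenase and EDTA to enrich osteocytes, with an RNA integrity number of 4 or higher. Counts assigned to genes were 33310955 and 30621215 in L-BAIBA replicates 1 and 2, and 20674516, 25190002 and 36731435 in vehicle replicates 1 to 3. Levels are given as CPM, the counts relative to the TMM-scaled library total, in the order L-BAIBA replicates 1 and 2, then vehicle replicates 1 to 3. All 10 osteocyte markers were present, and together they held 7938, 10420, 9663, 5621 and 5207 CPM. Marrow genes were also present, with 17 neutrophil markers at a summed 59080, 33810, 32820, 39700 and 30130 CPM. The ribosomal RNA gene *Rn45s* took 0.913% and 1.54% of the counts in the L-BAIBA libraries and 5.49%, 1.5% and 5.48% in the vehicle libraries.

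Of 15500 genes tested with edgeR's quasi-likelihood test, 20 were higher (0.129% of all genes tested) and 83 lower (0.535%) with L-BAIBA by the rule that the unadjusted p is under 0.05 and the log2 fold change, in either direction, exceeds 1. No gene had an adjusted p under 0.05, and the smallest adjusted p was 0.956. Without overlap between groups, 13.2% of the genes tested were higher with L-BAIBA and 9.61% lower. At an unadjusted p under 0.05 with no fold threshold, 324 genes were higher (2.09%) and 247 lower (1.59%). Together these were 3.68% of the genes tested, and the lists below are read beside these shares. A gene is termed called below where it met this unadjusted threshold, which ranks the genes of these libraries and no more, since each gene named below had an adjusted p of 0.956 or higher by edgeR. With the same counts, DESeq2 gave an adjusted p under 0.05 to 5 genes, among them *Fosl1*, *Nabp1*, *Col14a1* and *Arrdc3*. The edgeR likelihood ratio test gave it to 4, among them *Fosl1*, *Nabp1* and *Ppm1n*, and limma voom to 0 genes. *Nabp1* and *Arrdc3* are named here because of these 2 tests, after their values were seen. Single libraries moved the counts of higher and lower genes, to 19 and 29 without L-BAIBA replicate 1, to 102 and 327 without L-BAIBA replicate 2, to 42 and 52 without vehicle replicate 1 and to 31 and 74 without vehicle replicate 2.

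**Figure D1:**
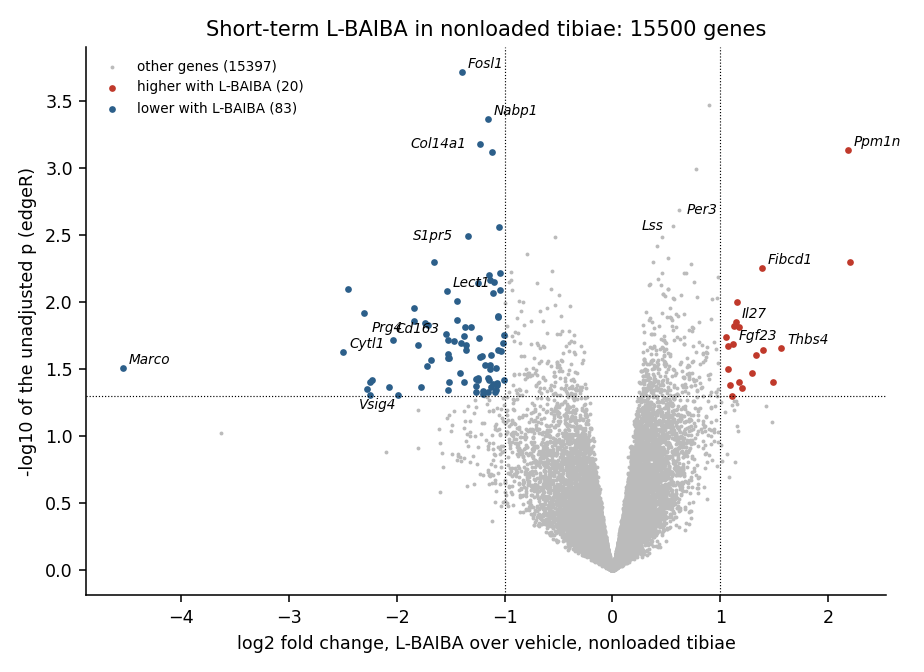
Each point is 1 of 15500 genes, with the log2 fold change of L-BAIBA over vehicle in nonloaded tibiae on the x axis and the −log10 of the unadjusted edgeR p on the y axis. Dotted lines mark a p of 0.05 and log2 fold changes of 1 and -1, and 83 genes lie in the lower-with-L-BAIBA corner against 20 in the higher corner.

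Of the 59 genes called and named here by rule, 8 kept their direction and an unadjusted p under 0.05 under each of 14 alternative scalings, filters, tests and left-out libraries. Among those higher with L-BAIBA were *Ppm1n*, *Per3*, *Lss* and *Fibcd1*, and those lower were *Fosl1*, *Col14a1* and *S1pr5*. These genes belong to different systems, namely a phosphatase, the clock, sterol synthesis, a lectin-like receptor, an AP-1 transcription factor, a fibril-associated collagen and a lipid receptor. Of the 59, 47 were no longer called without L-BAIBA replicate 1, 20 without L-BAIBA replicate 2, 26 without vehicle replicate 1, 15 without vehicle replicate 2 and 21 without vehicle replicate 3.

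*Ppm1n* (chromosome 7, 19276807-19280049, mm10) encodes a metal-dependent protein phosphatase of the PP2C family. It was at 3.78 and 2.54 CPM in the L-BAIBA libraries and at 0.671, 0.843 and 0.571 CPM in the vehicle libraries. Both treated libraries lay above all controls, and the log2 fold change was 2.19 (standard error 0.47). *Fibcd1* (chromosome 2, 31813290-31846005), a membrane receptor that binds chitin and glycans, had 3.99 and 4.25 CPM with L-BAIBA and 2.25, 0.882 and 1.63 CPM with vehicle. Its log2 fold change was 1.38 (standard error 0.40), without overlap between groups. Lack of overlap was a condition for naming both genes by their fold change.

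*Fosl1* (chromosome 19, 5447698-5455938) had the lowest p of all genes tested. It encodes FRA1, an AP-1 subunit that takes part in bone matrix formation, and its transcription is induced by growth factors and strain. It was at 7.62 and 8.57 CPM with L-BAIBA and at 17.9, 21.8 and 24.1 CPM with vehicle. Both treated libraries lay under the lowest control, and the log2 fold change was -1.39 (standard error 0.25). *Nabp1*, which encodes a single-stranded DNA-binding protein of the DNA damage response, had 37.8 and 35.7 CPM against 101, 70.0 and 74.7 CPM, without overlap, and its log2 fold change was -1.16 (standard error 0.23). *Arrdc3*, an arrestin-domain protein that governs the trafficking of β-adrenergic receptors, had 83.8 and 104 CPM against 228, 184 and 200 CPM, again without overlap, and its log2 fold change was -1.12 (standard error 0.24). *Fosl1* was the only one of 21 immediate-early genes that was called (3.68% of all genes tested were). Those not called included *Egr1* (log2 fold change 0.56, standard error 0.35) and *Fosb* (0.52, standard error 0.38), and the median of the list was -0.02, against 0.01 over all genes tested.

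**Figure D2:**
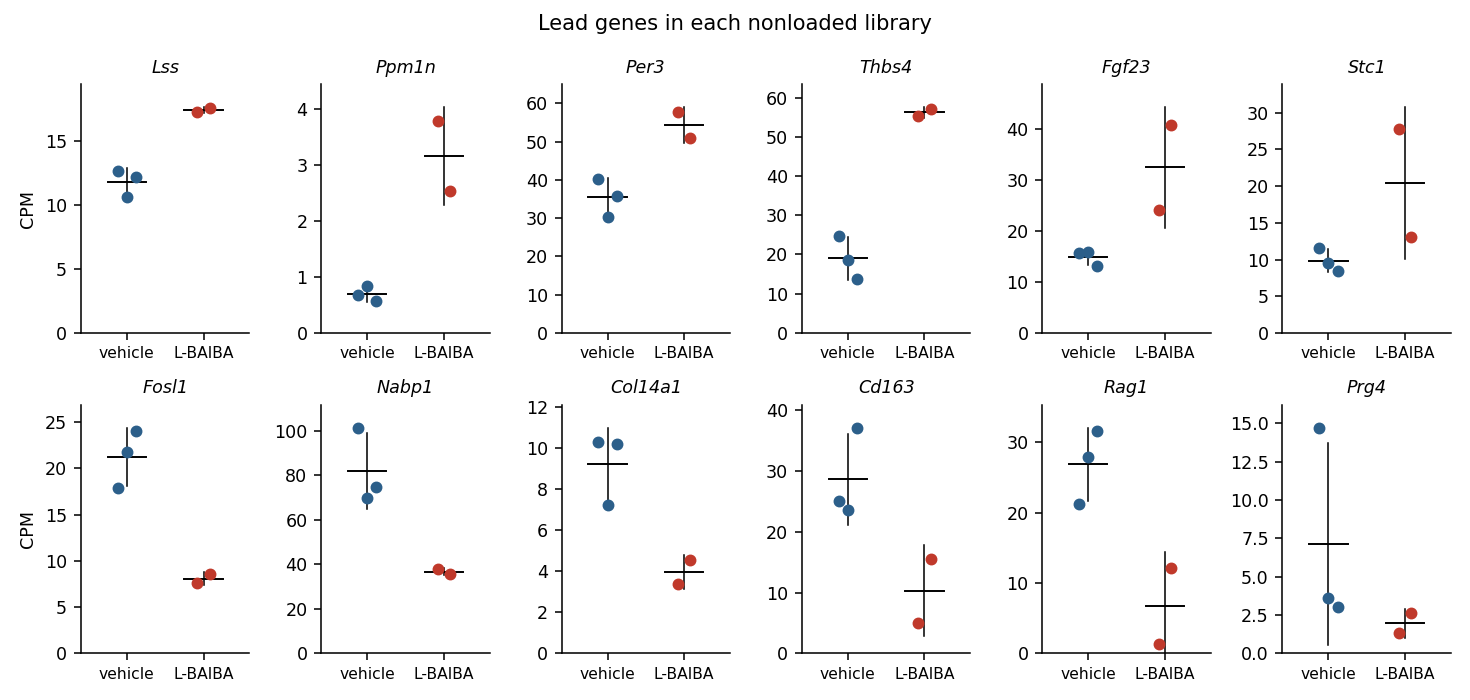
CPM of 12 genes in each nonloaded library, with 1 panel for each gene. Points are libraries (vehicle n = 3, L-BAIBA n = 2), horizontal lines are means and vertical lines are ± SD, drawn no lower than 0. The groups do not overlap in any of the 12 panels, which was a condition for naming some of these genes. Vehicle replicate 1 of *Prg4* (14.7 CPM) and L-BAIBA replicate 1 of *Rag1* (1.37 CPM) stand apart from their group.

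Genes of sterol metabolism leaned towards higher levels with L-BAIBA. The 24 genes were put together as a list after *Lss*, *Msmo1* and others had been seen among the smallest p values, so their counts describe these libraries and test nothing. Cells make cholesterol from acetyl-CoA through mevalonate and squalene, and the transcription factor SREBP2 (*Srebf2*) drives this synthesis when membrane sterol is low.

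All 24 measured genes had a positive log2 fold change, with a median of 0.38, whereas 52.1% of all genes tested had a positive and 47.9% a negative one. The groups did not overlap in 11 of them, all higher with L-BAIBA (13.2% of all genes tested were higher without overlap). Called were 6 of the 24 (2.09% of all genes tested were called higher). *Lss* (chromosome 10, 76531605-76557139), the lanosterol synthase that closes the sterol rings, had 17.2 and 17.6 CPM against 12.6, 10.6 and 12.2 CPM. The treated libraries were alike and above all controls, and the log2 fold change was 0.56 (standard error 0.14).

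*Msmo1*, a C4-demethylase of the pathway, had 60.7 and 41.7 CPM with L-BAIBA and 31.4, 34.8 and 29.4 CPM with vehicle (log2 fold change 0.68, standard error 0.20). *Tm7sf2*, a sterol reductase, had 6.46 and 5.33 CPM against 3.79, 2.84 and 4.54 CPM (log2 fold change 0.66, standard error 0.24). In both genes every treated library was above every control, and L-BAIBA replicate 1 was the higher of the 2. Also called were *Cyp51*, a further demethylase (0.44), and the squalene epoxidase *Sqle* (0.39). Without L-BAIBA replicate 1 the median of the list was 0.17, with 20 of 24 genes higher and 2 called, and without vehicle replicate 1 it was 0.38, with 24 of 24 higher.

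The letters of the sterol response element to which SREBP2 binds (TCACNCCAC, either strand) were looked up in the RefSeq promoter windows of GRCm38.p6, which reach from 250 bases before the start site to 50 after it. Windows were found for 17 of the 24 sterol genes, and 1 of these 17 held the motif (5.88%), against 408 of 32851 promoters in all (1.24%). The first share counts genes with the motif in any window and the second counts single windows, so they differ in unit. The gene with the motif was *Hmgcs1*, the HMG-CoA synthase, and the stretch around the motif is shown because it is the only match in the list. It lies at chr13:119690164-119690272 on the plus strand, with the motif in capitals beginning 137 bases before the start site.
Hmgcs1: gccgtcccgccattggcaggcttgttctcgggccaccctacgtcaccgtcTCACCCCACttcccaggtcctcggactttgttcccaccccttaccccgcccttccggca
*Hmgcs1* had 98.5 and 89.3 CPM with L-BAIBA and 80.4, 70.4 and 54.1 CPM with vehicle. The groups did not overlap, but the log2 fold change of 0.46 (standard error 0.21) was not called.

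All 10 osteocyte markers had positive log2 fold changes (median 0.42), and 2 of them were called, *Fgf23* and *Irx5* (2.09% of all genes tested were called higher). In loaded tibiae 1 of the 10 was higher with L-BAIBA (median -0.25). *Fgf23* encodes the hormone with which osteocytes lower phosphate reabsorption and vitamin D activation in the kidney. It was at 24.1 and 40.9 CPM with L-BAIBA and at 15.8, 15.9 and 13.2 CPM with vehicle. Vehicle libraries were close together, both treated libraries were higher but unlike each other, and the log2 fold change was 1.12 (standard error 0.41). *Irx5*, an Iroquois homeobox transcription factor, was at 85.4 and 80.9 CPM against 55.1, 36.3 and 37.1 CPM, again without overlap (log2 fold change 0.96, standard error 0.43). It was not called in 9 of 14 alternatives.

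The most typical osteocyte products did not separate the groups. *Sost* had 2517 and 3103 CPM with L-BAIBA and 3424, 1591 and 1576 CPM with vehicle, so that vehicle replicate 1 was the highest of the 5 libraries. The log2 fold change was 0.35 (standard error 0.46). *Dmp1*, a matrix phosphoprotein (0.55), *Mepe* (0.49), *Phex* (0.28) and *Dkk1* (0.64) likewise overlapped between groups, each with vehicle replicate 1 at or near the level of the treated libraries. Without vehicle replicate 1 the osteocyte median was 0.82 with 3 genes called. Without L-BAIBA replicate 2 it was 0.17, with 8 of 10 genes higher and 0 called.

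Secreted proteins of bone and connective tissue were also among the called genes of largest positive fold change, which were picked for lack of overlap too. *Thbs4*, a matricellular thrombospondin of tendon and bone, had 55.3 and 57.2 CPM with L-BAIBA and 24.8, 18.5 and 13.8 CPM with vehicle. Treated libraries agreed closely and lay above all controls (log2 fold change 1.57, standard error 0.58). *Stc1*, the glycoprotein hormone stanniocalcin 1 that acts on calcium and phosphate transport, had 27.7 and 13.1 CPM against 11.6, 9.51 and 8.45 CPM (log2 fold change 1.05, standard error 0.38), mostly through L-BAIBA replicate 1. *Fgf23* was the only called gene of 15 in a list of phosphate and mineral regulators (3.68% of all genes tested were called). The list had a median of 0.23 with 10 higher. Its kinase *Fam20c* was 0.70 higher on the log2 scale (standard error 0.39) and not called.

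Other called genes with a large positive fold change were *Il27*, a cytokine subunit (2.17 and 1.49 CPM against 0.815, 0.958 and 0.714 CPM, log2 fold change 1.15), and *Kcnj11*, the pore of ATP-sensitive potassium channels (2.02 and 2.25 CPM against 1.49, 0.805 and 0.799 CPM, 1.07). *Prss16*, a serine protease of thymic epithelium, had 10.8 and 5.17 CPM against 3.74, 4.22 and 3.45 CPM (1.07). Lack of overlap was a condition for naming these 3, and L-BAIBA replicate 1 was the higher in 2 of them. *Foxd4*, a forkhead factor that the study lists, was at 2.65 and 1.27 CPM against 0.240, 1.04 and 0.857 CPM, and its log2 fold change of 1.43 (standard error 0.68) was not called. *Cilp*, which it also lists, was under the CPM filter. Because the study chose its names on these same libraries, their counts are not independent evidence.

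Markers of osteoblasts, the matrix-forming cells of the bone surface, showed 8 of 14 genes lower, with a median of -0.19 and 0 called in either direction, while the 5 nonloaded libraries fitted alone gave 6 called lower. That fit called more of all genes tested too, 560 higher and 500 lower against 324 and 247. Their summed CPM was 12110 and 11500 with L-BAIBA and 25140, 17780 and 29140 with vehicle. *Col1a1*, the main collagen of bone, was at 3788 and 3112 CPM with L-BAIBA and at 8791, 6385 and 11417 CPM with vehicle. Groups did not overlap, but the spread among vehicle libraries was wide, and the log2 fold change of -1.36 (standard error 0.78) was not called in the joint fit. *Col1a2* (-1.30), *Sparc* (-1.04) and *Bglap*, osteocalcin (-1.11), were likewise lower without overlap and not called in that fit. *Runx2* (0.19) and *Sp7* (0.28), the transcription factors of the lineage, pointed the other way and were not called. In these bulk samples fewer cells of a type and less RNA per cell cannot be told apart.

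Cartilage genes were lower with L-BAIBA, 18 of 20 measured genes by sign, with a median of -0.95 and 3 called (1.59% of all genes tested were called lower). Their summed CPM was 724.9 and 836 with L-BAIBA and 1336, 890.3 and 1456 with vehicle, so that vehicle replicates 1 and 3, the libraries with 5.49% and 5.48% of *Rn45s*, were the highest, as they were for the osteoblast genes. The part of RNA composition in these results was not tested. *Lect1*, the chondrocyte growth regulator chondromodulin, was at 0.447 and 0.508 CPM in the L-BAIBA libraries and at 1.39, 0.997 and 1.77 CPM in the vehicle libraries. Its log2 fold change was -1.54 (standard error 0.47), without overlap. *Cytl1*, a cytokine-like protein of chondrocytes, had 0.715 and 1.08 CPM against 10, 1.30 and 4.03 CPM (-2.50, standard error 0.94), and the lowest control was close to the treated libraries. *Col9a3*, a chain of the collagen that coats cartilage fibrils, had 1.61 and 1.46 CPM against 2.78, 1.88 and 2.86 CPM (-0.71, standard error 0.30). *Col9a2* had a larger fold change that was not called (-1.81, standard error 0.87), and *Col2a1* (-0.57) and *Sox9* (-0.19), which define chondrocytes, overlapped between groups. Without L-BAIBA replicate 1 the median was -0.75 with 0 genes called, and the nonloaded libraries fitted alone gave 9 called lower and 1 higher.

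Genes of tendon, periosteum and joint surface divided. Of 14 measured, 11 were lower and 3 higher, with 3 and 1 called (1.59% of all genes tested were called lower and 2.09% higher). *Col14a1* (chromosome 15, 55307750-55520803), a collagen on the surface of fibrils in tendon and periosteum, was at 3.36 and 4.54 CPM with L-BAIBA and at 10.3, 7.21 and 10.2 CPM with vehicle. All controls exceeded both treated libraries, and the log2 fold change was -1.22 (standard error 0.26). *Prg4*, lubricin of the joint surface, had 1.31 and 2.64 CPM against 14.7, 3.60 and 3.06 CPM (-1.84, standard error 0.62). Vehicle replicates 2 and 3 were near the treated libraries, and without vehicle replicate 1 the log2 fold change was -0.75.

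*Dcn*, decorin, a proteoglycan that binds collagen, had 102 and 98.5 CPM against 322, 172 and 217 CPM (-1.24, standard error 0.52). The treated libraries were alike and the controls spread. *A2m*, a plasma protease inhibitor that the study lists, followed the pattern of *Prg4*, at 0.387 and 0.698 CPM against 5.13, 1.69 and 1.08 CPM (-2.25, standard error 1.01), as did *Calml3*, a calmodulin-like protein of epithelia, at 0.685 and 0.762 CPM against 6.23, 1.92 and 1.17 CPM (-2.07, standard error 0.90).

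Fat cell genes were lower in 12 of 14 cases with a median of -0.94, and 2 were called (1.59% of all genes tested were called lower). *Adipoq*, the fat cell hormone adiponectin, was at 11.7 and 26.4 CPM with L-BAIBA and at 68.9, 38 and 40.3 CPM with vehicle (-1.36, standard error 0.47). *Scd1*, a fatty acid desaturase, was at 83.2 and 125 CPM against 493, 182 and 155 CPM (-1.41, standard error 0.58). Both lacked overlap, and vehicle replicate 1 was the highest library in each. The defining lipid droplet gene *Plin1* was at 1.73 and 2.67 CPM against 12.7, 3.34 and 2.80 CPM (-1.50, standard error 0.81) and was not called.

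Vehicle replicate 1 carried a good part of these differences. It had 1398 summed CPM of fat cell markers, where the other 2 vehicle libraries had 780.1 and 745.4 and the L-BAIBA libraries 478.4 and 647.9. Without it the fat cell median was -0.27 with 0 genes called (4 lower and 1 higher with the nonloaded libraries fitted alone), the cartilage median -0.62 with 1 called, and the tendon, periosteum and joint median -0.13 with 2 lower and 1 higher called. Without L-BAIBA replicate 1 the last of these lists had 1 gene called lower and 0 higher. Beyond these values its part in the result was not tested.

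**Figure D3:**
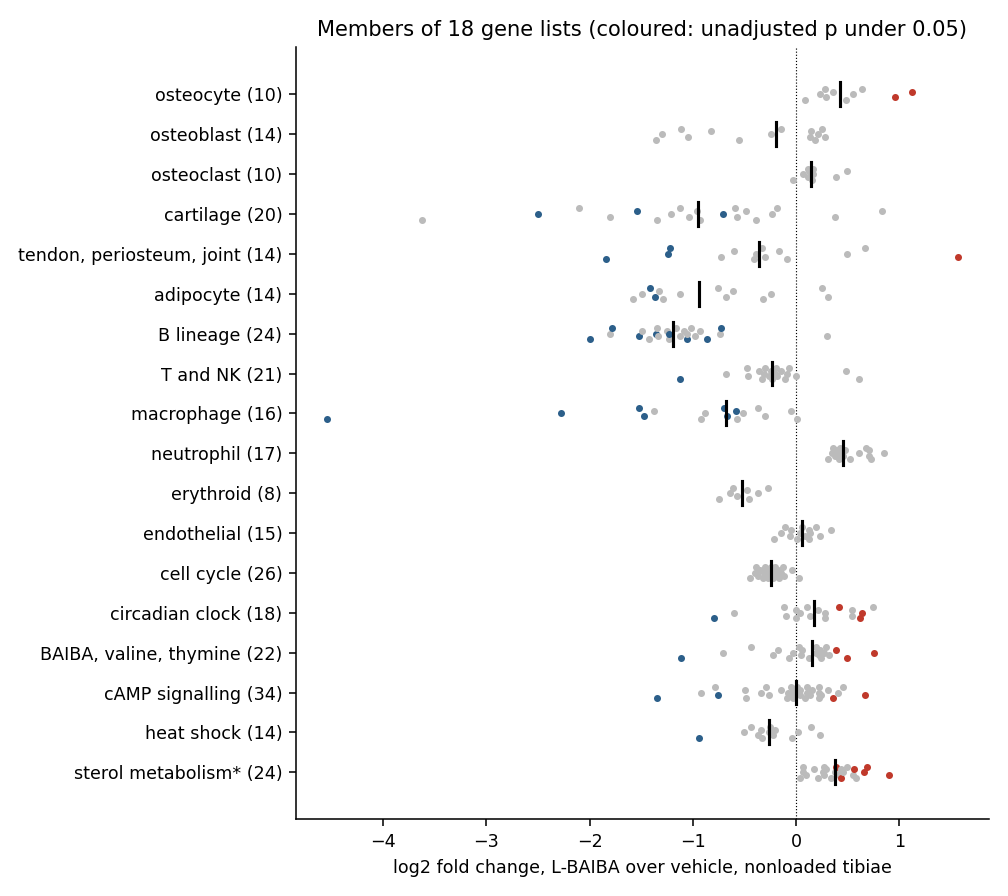
Log2 fold changes of the measured members of 18 gene lists (number in brackets), L-BAIBA over vehicle in nonloaded tibiae. Each point is a gene, red if higher and blue if lower at an unadjusted p under 0.05 and grey otherwise, and the black bar is the list's median; the list with an asterisk was put together after its values were seen. The B lineage median lies at -1.20 and the neutrophil median at 0.46.

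B lineage genes were lower with L-BAIBA. Of 24 genes, 23 had a negative log2 fold change, with a median of -1.20, and 20 were lower without overlap (9.61% of all genes tested were). Developing B cells make up a large share of the marrow, where they rearrange their immunoglobulin genes with the recombinases RAG1 and RAG2. Called were *Pou2af1*, *Fcrla*, *Il7r*, *Blnk*, *Cd72*, *Vpreb3*, *Ebf1* and *Rag1*, which is 8 of 24 (1.59% of all genes tested were called lower).

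*Rag1* was at 1.37 and 12.2 CPM with L-BAIBA and at 21.3, 27.8 and 31.5 CPM with vehicle (-1.99, standard error 0.90). *Pou2af1*, a coactivator of immunoglobulin genes, had 6.94 and 25.8 CPM against 43, 48.8 and 49 CPM (-1.52, standard error 0.55). *Il7r*, the receptor for the cytokine on which B cell precursors depend, had 7.62 and 17.3 CPM against 24.2, 28.4 and 25.4 CPM (-1.06, standard error 0.40). Both treated libraries were below all controls in these genes, with L-BAIBA replicate 1 far lower than replicate 2.

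Some B cell genes overlapped between groups through L-BAIBA replicate 2. *Cd22*, an inhibitory receptor of B cells, was at 4.41 and 36.2 CPM against 30.9, 40.5 and 44.5 CPM (-0.93, standard error 0.74) and was not called. *Fcrla* and *Blnk* were likewise lowest in L-BAIBA replicate 1, as was *Bfsp2*, a filament protein first known from the lens and named for its fold change, at 0.625 and 1.33 CPM against 3.88, 3.11 and 3.51 CPM (-1.84, standard error 0.60). Summed over the list, the 2 L-BAIBA libraries had 225.7 and 536.6 CPM and the 3 vehicle libraries 634.7, 730.2 and 768.8 CPM. Without L-BAIBA replicate 1 the median was -0.50, and without replicate 2 it was -2.85. The nonloaded libraries fitted alone gave 13 called.

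Genes of tissue-resident macrophages were lower as well, in 15 of 16 cases, with a median of -0.68. Of these, 12 were lower without overlap (9.61% of all genes tested were) and 7 were called (1.59% of all genes tested were called lower). *Cd163*, the scavenger receptor for haemoglobin, was at 5.06 and 15.6 CPM with L-BAIBA and at 25.1, 23.5 and 37.1 CPM with vehicle. Both treated libraries were lower than all controls (-1.47, standard error 0.54). *Timd4*, a receptor for dying cells on resident macrophages, had 1.31 and 0.952 CPM against 4.36, 2.19 and 3.25 CPM (-1.52, standard error 0.59), with the treated libraries alike. *C1qa*, a chain of complement C1q, had 36.0 and 66.6 CPM against 83.0, 72.5 and 89.4 CPM (-0.67, standard error 0.25).

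*Marco*, a scavenger receptor of marginal-zone and alveolar macrophages, had the largest fitted fold change of the comparison but few reads, 1 and 2 counts with L-BAIBA and 53, 10 and 24 with vehicle. The ratio of the pooled rates was 0.0445, with an exact 95% interval of 0.00901 to 0.135 that covers counting error only. *Vsig4*, a complement receptor that the study lists, had 2 and 21 counts against 50, 20 and 74, and its second L-BAIBA library lay just under the lowest control in CPM (0.667 against 0.767). The pan-macrophage genes *Csf1r* (213 and 217 CPM against 206, 225 and 238 CPM, -0.05) and *Cd68* (0.01) overlapped between the groups. Without L-BAIBA replicate 1 the median of the list was -0.29, and without replicate 2 it was -1.21.

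Neutrophil genes lay on the other side. All 17 had a positive log2 fold change, with a median of 0.46. In 5 the groups did not overlap (13.2% of all genes tested were higher without overlap), and 0 were called. The largest were *Prtn3* (0.85, standard error 0.45), at 630 and 301 CPM against 247, 236 and 291 CPM, and *Mpo* (0.70, standard error 0.39), at 3934 and 1995 CPM against 1559, 1995 and 1909 CPM, both granule enzymes of early neutrophil precursors. L-BAIBA replicate 1 was the highest of the 5 libraries in each, while replicate 2 was close to the controls. Without replicate 1 the median was 0.08 with 11 of 17 genes higher, and without replicate 2 it was 0.77. With the nonloaded libraries fitted alone 5 were called higher. Of 8 erythroid genes, all were lower (median -0.52) and 0 were called. The erythroid median was -0.12 without L-BAIBA replicate 1 and -1.10 without replicate 2.

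**Figure D4:**
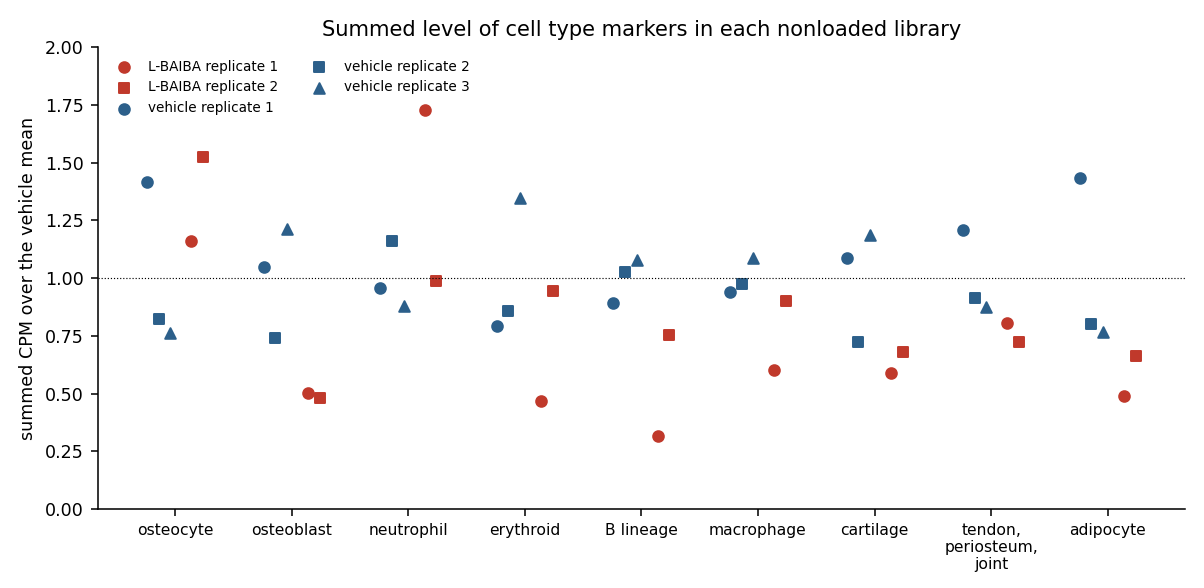
Summed CPM of 9 marker lists in each nonloaded library, divided by the mean of the 3 vehicle libraries (y axis), with 1 symbol for each library. L-BAIBA replicate 1 is the highest library for neutrophil genes (59080 CPM) and the lowest for B lineage (225.7), macrophage (747) and erythroid (2219) genes, and vehicle replicate 1 is the highest for fat cell genes (1398).

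Circadian clock genes were called in both directions. The clock is a loop in which CLOCK or NPAS2 with BMAL1 (*Arntl*) switch on *Per* and *Cry* genes, whose proteins then repress them, and DBP, TEF and HLF are output factors that bind D-box sequences. Of 18 genes, 13 were higher and 5 lower (median 0.17), with *Per3*, *Dbp* and *Cry1* called higher and *Npas2* lower. Of all genes tested, 2.09% were called higher and 1.59% lower. *Per3* (chromosome 4, 151003655-151044665) was at 57.7 and 51 CPM with L-BAIBA and at 40.3, 30.2 and 35.8 CPM with vehicle. The groups did not overlap, and the log2 fold change was 0.62 (standard error 0.15).

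*Dbp* had 24.8 and 31.2 CPM against 23.5, 13.3 and 17.1 CPM (0.64, standard error 0.28), and its highest control lay just under the treated libraries. *Npas2* had 2.44 and 2.51 CPM against 5.08, 4.14 and 3.71 CPM (-0.80, standard error 0.33), and its partner *Arntl* 11.8 and 14.1 CPM against 20.8, 20.5 and 17.7 CPM (-0.60, standard error 0.27, not called). Both activators were lower without overlap while *Tef* (0.54, standard error 0.27) and *Ciart* (0.54, standard error 0.34) were higher without overlap and not called. *Per2* (0.21) and *Nr1d1* (0.10) overlapped between the groups. Without L-BAIBA replicate 2 the median of the list was -0.02 with 7 of 18 higher.

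In the RefSeq promoter windows, found for 15 of the 18 clock genes, the E-box CACGTG to which CLOCK and BMAL1 bind (a palindrome, so 1 search covers both strands) was present in 5 genes (33.3%), against 7.15% of all promoters. The D-box TTATGTAA (either strand, no overlap with the E-box) was present in 1 gene (6.67%), against 0.938% of all promoters. As for the sterol element, the list shares count genes with the motif in any window and the others count single windows. The D-box gene was *Per3*, whose window holds 2 copies, beginning 205 and 158 bases before the start site. The E-box genes were *Per1*, *Bhlhe41*, *Tef*, *Cry1*, with 1 E-box, and *Ciart*, a repressor of CLOCK and BMAL1, with 3. The 3 stretches, on the minus strand at chr4:151044766-151044915, chr10:85185059-85185164 and chr3:95882217-95882394, are shown with the motifs in capitals as examples of the clock's own motifs in genes with higher levels in both L-BAIBA libraries. *Tef* would qualify too and is not shown.
Per3: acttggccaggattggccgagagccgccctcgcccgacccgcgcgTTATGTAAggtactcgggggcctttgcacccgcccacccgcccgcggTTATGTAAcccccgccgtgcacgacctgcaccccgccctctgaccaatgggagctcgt
Cry1: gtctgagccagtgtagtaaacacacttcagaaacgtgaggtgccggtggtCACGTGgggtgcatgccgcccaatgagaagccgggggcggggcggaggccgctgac
Ciart: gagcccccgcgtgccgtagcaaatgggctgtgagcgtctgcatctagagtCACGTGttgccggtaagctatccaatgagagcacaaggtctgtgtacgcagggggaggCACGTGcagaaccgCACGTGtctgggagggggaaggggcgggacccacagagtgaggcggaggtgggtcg
*Per1* and *Bhlhe41* each had a log2 fold change of 0.00 and overlap between groups, so genes with the motif were not all higher. *Cry1* was at 35.9 and 26.8 CPM against 21.9, 26 and 22.7 CPM (0.41, standard error 0.19), and it was not called in 9 of 14 alternatives.

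The genes that handle L-BAIBA itself, and valine and thymine from which BAIBA is made, were examined as a list of 22 measured genes. It held 15 higher and 7 lower genes (median 0.16), with 3 and 1 called. Of all genes tested, 52.1% had a positive log2 fold change, 2.09% were called higher and 1.59% lower. Called higher were *Slc36a1*, a proton-coupled carrier of small amino acids, with 68.3 and 50.5 CPM against 38.4, 44.7 and 43 CPM (0.50, standard error 0.18), and *Slc6a12*, the betaine and GABA carrier, with 9.05 and 5.30 CPM against 4.12, 4.79 and 3.88 CPM (0.75, standard error 0.28). The treated libraries were above all controls in both, with L-BAIBA replicate 1 the higher.

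*Bckdha*, a subunit of the complex that commits branched-chain amino acids to breakdown, had 35.9 and 33.1 CPM against 26.5, 26.4 and 26.4 CPM (0.38, standard error 0.17). Its controls were nearly identical. *Bcat1*, the cytosolic transaminase for the same amino acids, was lower at 2.02 and 3.62 CPM against 7.04, 6.48 and 4.8 CPM (-1.11, standard error 0.48). *Abat*, the transaminase that breaks down BAIBA and GABA, had 7.65 and 8.6 CPM against 11.4, 10.8 and 10.7 CPM, without overlap, but its log2 difference of -0.43 (standard error 0.24) was not called. *Mrgprd*, the gene of the receptor, and *Agxt2*, a further transaminase, were not analysed here. In this list 0 genes were called without L-BAIBA replicate 1, and 0 without vehicle replicate 1.

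Of 34 genes of cyclic AMP signalling, the second messenger of many G protein-coupled receptors, 17 were higher and 17 lower (median 0.00). In each direction 2 were called, where 2.09% of all genes tested were called higher and 1.59% lower. *S1pr5* (chromosome 9, 21242917-21248443), a receptor for sphingosine 1-phosphate, was at 1.22 and 1.02 CPM with L-BAIBA and at 3.26, 2.61 and 2.68 CPM with vehicle. Treated and control libraries were tightly grouped and apart (-1.34, standard error 0.36). *Pde4b*, a phosphodiesterase that destroys cyclic AMP, had 56.1 and 75.9 CPM against 107, 121 and 106 CPM (-0.75, standard error 0.26). *Pde4a*, its paralog, went the other way with 31.4 and 27.7 CPM against 21.1, 23.6 and 24.4 CPM (0.36, standard error 0.14).

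*Ramp1*, which turns the calcitonin receptor-like receptor into a CGRP receptor, had 58.8 and 38.4 CPM against 31.6, 29.3 and 31.0 CPM (0.66, standard error 0.22). Its controls were uniform and L-BAIBA replicate 1 was the higher. Among 37 Wnt pathway genes, 18 were higher and 19 lower (median -0.06). The 3 called were all lower (1.59% of all genes tested were called lower). They were *Lef1*, a nuclear effector that is also a gene of B cell precursors (3.93 and 7.02 CPM against 12.6, 12.1 and 11.4 CPM, -1.14), *Rspo3*, a secreted amplifier of Wnt signals (2.59 and 2.44 CPM against 6.23, 4.75 and 3.20 CPM, -0.90), and its receptor *Lgr5* (0.595 and 2.06 CPM against 2.78, 2.84 and 3.48 CPM, -1.20). *Lef1* and *Lgr5* were lowest in L-BAIBA replicate 1, as were the B lineage genes, and the part of these cells in the result was not tested. The Wnt list without L-BAIBA replicate 1 had 0 genes called lower and 1 higher, and without vehicle replicate 1 it had 0 lower and 2 higher. Of 39 genes of TGFβ and BMP signalling, 1 was called, no larger a share than the 3.68% of all genes tested. This gene was the BMP antagonist *Grem1*, at 5.84 and 9.81 CPM against 15.1, 12.6 and 19.0 CPM (-0.99, standard error 0.32).

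Whether the L-BAIBA effect differed between the nonloaded and the loaded leg was tested as an interaction over the 11 single-bout libraries. In 12 genes the effect was higher in loaded tibiae (0.0774% of all genes tested) and in 192 lower (1.24%), at an unadjusted p under 0.05 and a difference of more than 1. An unadjusted p under 0.05 alone was seen in 312 genes (2.01%) and an adjusted one in 0. With DESeq2, the likelihood ratio test and limma voom the adjusted count was also 0. The 204 genes of the fold rule became 90 without L-BAIBA replicate 1, 105 without vehicle replicate 3 and 284 without vehicle replicate 1. Some loaded and nonloaded libraries came from the same mice, and with the pool of mice as a random effect in limma voom (correlation within a pool 0.406) the count was 531, with 0 genes past an adjusted p of 0.05. *Ppm1n* had a log2 fold change of 2.19 in nonloaded and 0.55 in loaded tibiae (difference -1.63, standard error 0.63, called). In loaded tibiae it was at 1.53, 0.966 and 2.43 CPM with L-BAIBA and at 1.82, 0.855 and 0.754 CPM with vehicle, so the groups overlapped there.

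The effect on *Fosl1* was -1.39 in nonloaded and -0.66 in loaded tibiae, on *Per3* 0.62 and 0.15, on *Fibcd1* 1.38 and 0.12 and on *Irx5* 0.96 and -0.36, and the difference was called in each. By contrast *Col14a1*, at -1.22 and -1.26, had a difference of -0.04 (standard error 0.34). All these genes and *Ppm1n* were named for their values in nonloaded tibiae, which the difference uses again. A called difference in them is therefore not independent evidence that the legs differ. *G0s2*, an inhibitor of fat breakdown, had the lowest p for the difference (0.93, standard error 0.21). It was at 47.2 and 60.6 CPM with L-BAIBA and at 65.1, 74.0 and 78.5 CPM with vehicle in nonloaded tibiae, and at 112, 93.0 and 88.0 CPM against 64.9, 65.3 and 77.0 CPM in loaded ones. Treated libraries were below all controls in the nonloaded leg and above them in the loaded leg. *Trem1*, a receptor of neutrophils and monocytes, had the same order, at 147 and 165 CPM against 189, 228 and 174 CPM in nonloaded tibiae (-0.34, not called) and with an effect of 0.58 in loaded ones (difference 0.91, standard error 0.24). *Aqp4*, a water channel, differed through the loaded leg (-2.01), since in nonloaded tibiae it was at 1.91 and 1.52 CPM against 1.87, 1.88 and 2.14 CPM, with overlap. Among the lists, the L-BAIBA median in loaded tibiae was 0.92 for neutrophil genes (17 of 17 higher) and -0.86 for erythroid genes (0 of 8). It was -0.81 for B lineage genes (2 of 24) and -0.65 for macrophage genes (2 of 16), against -0.04 over all genes tested. These 4 lists leaned the same way in both legs. The mice of both nonloaded L-BAIBA libraries and of nonloaded vehicle replicates 2 and 3 also gave loaded libraries. The legs are therefore not independent.

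The 2-week experiment used other mice, in which L-BAIBA was given for 2 weeks and the right leg was loaded 3 times a week. There 497 genes were higher (3.27% of 15188 tested in both experiments) and 65 lower (0.428%) in nonloaded tibiae by the same rule. Of the 20 genes higher at 5 days, 17 were measured at 2 weeks and 13 of these had the same sign (50.4% of all genes had it), with a median log2 fold change of 0.72. Of the 83 lower, 80 were measured and 45 had the same sign (49.6%), with a median of -0.12. The 5-day medians, on which the genes were chosen, were 1.18 and -1.27. At 2 weeks 2 of the higher genes, *Fibcd1* and *Kcnj11*, and 4 of the lower were called in the same direction (6.96% and 4.47% of all genes were called higher and lower). *Fibcd1* was at 1.63, 2.68 and 4.44 CPM with L-BAIBA and at 0.489, 1.11 and 1.85 CPM with vehicle there, with overlap between the groups and a log2 fold change of 1.42.

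Genes whose effect differed between durations were more often higher than lower at 2 weeks relative to 5 days. The difference was over 1 at an unadjusted p under 0.05 in 372 genes (2.45%) and under -1 in 120 (0.79%), with an adjusted p under 0.05 in 0 genes (unadjusted, 1105, or 7.28%) by edgeR, DESeq2 and limma voom alike. Without vehicle replicate 1 of the 5-day experiment the 492 genes became 307. *Prg4* and *Scn3b* were among the 4 genes of lowest p. After 2 weeks *Prg4* was at 2.96, 23.2 and 23.1 CPM with L-BAIBA and at 3.05, 4.31 and 2.78 CPM with vehicle, so that 2 of 3 treated libraries were far above the controls and 1 was within them. Its log2 fold change was -1.84 at 5 days and 2.30 at 2 weeks (difference 4.16, standard error 0.98, adjusted p = 0.668 by edgeR). *Scn3b*, a sodium channel subunit, was at 0.149 and 0.413 CPM against 0.527, 0.843 and 0.657 CPM at 5 days (-1.27) and at 0.888, 1.04 and 1.11 CPM against 0.244, 0.131 and 0.309 CPM at 2 weeks (2.19), where every treated library exceeded every control.

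Of the genes with stable 5-day differences, *Col14a1* went from -1.22 to 0.07, *Per3* from 0.62 to -0.04 and *S1pr5* from -1.34 to 0.73. *Cd163* went from -1.47 to 0.39 (standard error 0.45). In these 4 the difference was called. They were picked for their 5-day values, which the difference uses again. A smaller effect at 2 weeks is therefore not independent evidence of a change with time. *Fosl1*, at -1.39 and 0.22, was not called for the difference, and neither was *Thbs4*, at 1.57 and 0.81. For the sterol genes the 2-week median was 0.03 with 13 of 24 higher, for macrophage genes 0.05, for B lineage genes -0.46 and for osteocyte genes 0.71. For cartilage genes it was -0.95 with 1 of 20 higher, as against -0.95 at 5 days, and for fat cell genes -0.36. Neutrophil genes and those of tendon, periosteum and joint changed sign, to -0.16 (3 of 17 higher) and 0.65 (12 of 14 higher).

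**Figure D5:**
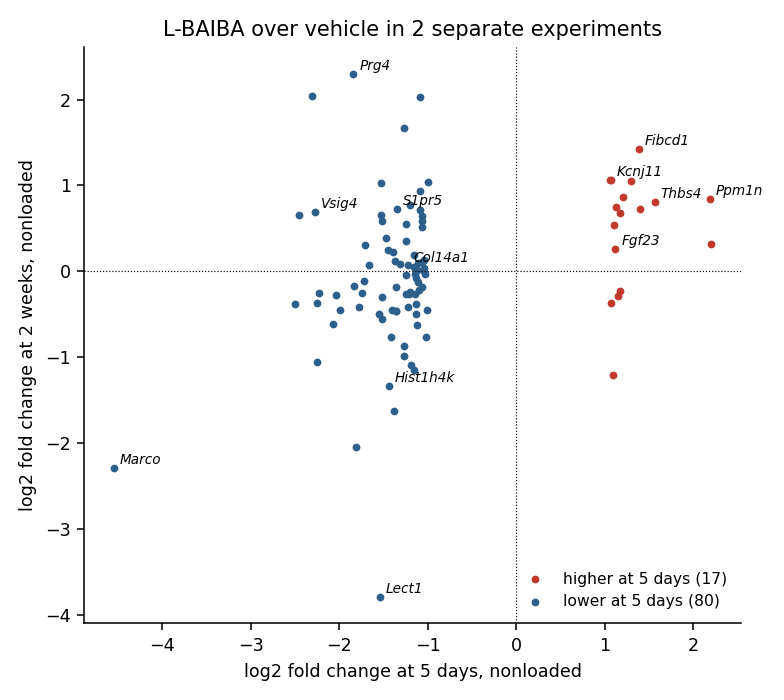
Log2 fold change of L-BAIBA over vehicle in nonloaded tibiae at 5 days (x axis) and at 2 weeks (y axis), for the 17 genes higher and the 80 lower at 5 days by the rule of unadjusted p and fold that were measured in both experiments. The experiments used different mice; *Prg4* lies at -1.84 and 2.30, and *Fibcd1* at 1.38 and 1.42.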

How the data were processed

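Left tibiae from the single-bout experiment were compared, as poly(A) RNA libraries. The authors aligned reads to mm10 with STAR 2.5.2b and assigned uniquely mapped read pairs to refSeq genes by strand with featureCounts (Subread 1.5.1), per the submitters' processing notes and the study's methods, and deposited raw counts for 15762 genes that had passed their own filter on low CPM. Reads of near-identical genes, such as histones, are counted only where they map uniquely. The deposited tables also hold log2 values, fold changes and p-values by the authors, which were not used.

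Genes with CPM over 0.5 in at least 4 of 11 single-bout libraries were kept (15500). Counts were scaled by TMM and fitted for all 4 single-bout groups together with edgeR 4.0.16 in R 4.3.3 (quasi-likelihood F test, Benjamini-Hochberg over all genes tested); the other 6 libraries share in estimating the spread. The biological coefficient of variation was 0.213. Comparison with 2 weeks used all 23 libraries (15188 genes). Alternatives used DESeq2 1.42.0 and limma 3.58.1. The functions were tested on simulated data. Replicate pairs differed by more than counting noise, so no library was counted as a duplicate.

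Named genes are the 8 with the largest increase and the 8 with the largest decrease among genes called at an absolute log2 fold change over 1, without overlap and with a mean of at least 1 CPM, up to 4 called members of each list, genes the study names, the L-BAIBA receptor and transaminases (of which *Abat* alone was tested here), and the 4 of smallest p in each test of a difference; gene models without a name are not printed, and a few genes that count in the totals are not reported here by name. List members with other values are given as examples. Members and lists were chosen with earlier results of these data known, so lists are described by counts and medians only. With 2 against 3 libraries, exact permutation of 1 gene cannot reach p = 0.05.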

Additional observations from a re-analysis of the deposited data

Results flagged for a closer look

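In 4 named genes the effect of L-BAIBA in nonloaded tibiae had an unadjusted p under 0.05 and the opposite direction, also with p under 0.05, in another setting, and the difference itself had p under 0.05. None passed adjustment over all genes. The effect on *Prg4*, lubricin, was 4.16 higher at 2 weeks than at 5 days on the log2 scale (standard error 0.98, adjusted p = 0.668 by edgeR), with 1 vehicle library at 5 days and 2 treated libraries at 2 weeks setting the values. The effect on *Slc6a12*, the betaine and GABA carrier, differed by -1.74 (standard error 0.54), from 0.75 at 5 days to -1.01 at 2 weeks, when it was at 1.78, 3.55 and 0.666 CPM with L-BAIBA and at 4.46, 4.97 and 3.50 CPM with vehicle. *Atp5sl*, a mitochondrial assembly factor, differed by -0.67 (standard error 0.16), with 20.2 and 20.2 CPM against 15.2, 15.8 and 16.4 CPM at 5 days and 17.3, 16.1 and 16.7 CPM against 20.9, 21.8 and 21.2 CPM at 2 weeks, so that the groups did not overlap at either time. For *G0s2*, an inhibitor of lipolysis, the effect was 0.93 higher in loaded than in nonloaded tibiae (standard error 0.21).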

How the results depend on the processing

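With 2 treated libraries, single libraries moved the counts. The 20 genes higher ranged from 17 to 102 and the 83 lower from 29 to 327 when 1 library was left out, with 29 lower genes without L-BAIBA replicate 1 and 327 without replicate 2; a lone library of a group is then assumed to vary like the others. Of the original calls, 8 higher and 11 lower remained without L-BAIBA replicate 1. A CPM minimum of 1 gave 8 higher genes, as fewer low genes are tested. The 5 nonloaded libraries alone gave 127 lower. A log2 fold change over 2 left 2 higher and 10 lower, and no fold threshold gave 324 and 247. Adjusted p under 0.05 was reached by 5 genes with DESeq2 and 4 with the likelihood ratio test.

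The 204 genes differing from loaded tibiae became 104 with the CPM minimum of 1, 316 with the likelihood ratio test, 531 with limma voom and the pool of mice as a random effect, 73 with a fold threshold of 2, 312 without one, and 90 to 284 with 1 library left out. The 492 genes differing from 2 weeks became 237 and 1105 with those fold thresholds and 307 to 621 with 1 library left out. Replicate numbers pair nothing here, since each number stands for different mice in the 2 groups; with the number as a replicate block the counts were 13 higher, 68 lower and 121 differing from loaded tibiae. Of 866 values of 62 named genes under 14 alternatives, 678 kept direction and side of the threshold, 178 lost p under 0.05, 10 gained it and 0 reversed. Apart from the CPM minimum and the fold thresholds, which change the genes counted, the cause was not tested.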

Other observations

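Of 26 cell cycle genes, 25 had a negative log2 fold change (median -0.24) and 0 were called, and without vehicle replicate 3 the median was -0.09 with 21 of 26 lower. Of 14 heat shock genes, 11 were lower (median -0.26), 5 without overlap (9.61% of all genes tested were lower without overlap). *Hsph1*, a large co-chaperone of HSP70, was called, at 29.2 and 48.7 CPM with L-BAIBA and at 60.0, 82.6 and 81.6 CPM with vehicle (-0.94, standard error 0.28). It was lowest in L-BAIBA replicate 1, without which the heat shock median was -0.11, with 8 of 14 lower and 0 called; the nonloaded libraries fitted alone gave 3 called lower. Replication histones divided, with 24 of 52 higher, 28 lower and 4 called lower (1.59% of all genes tested were called lower). Among these *Hist1h4k* was at 1.22 and 1.30 CPM against 4.46, 2.03 and 3.80 CPM (-1.44, standard error 0.49) and *Hist1h2bc* at 23.3 and 27.5 CPM against 67.8, 30.9 and 39.3 CPM (-0.85). *Rn45s*, the ribosomal RNA gene, was likewise high in vehicle replicates 1 and 3, and its part in the result was not tested.

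Ribosomal protein genes (75, median 0.05), respiratory chain genes (80, median 0.01), endothelial genes (15, median 0.06, 0 called) and interferon-induced genes (28, median -0.12, 0 called) had medians near that of all genes (0.01). Of 21 T and NK cell genes, 19 were lower (median -0.24), and only *Cd2*, which precursor B cells also express in mice, was called, at 2.38 and 7.14 CPM against 8.43, 11.5 and 11.1 CPM (-1.12, standard error 0.43). The direction of this list rested on L-BAIBA replicate 1, without which 15 of 21 genes were higher (median 0.17). Without replicate 2 the median was -0.78. Osteoclast genes were higher in 9 of 10 cases (median 0.14, 0 called). Of 12 skeletal muscle genes, 5 were higher and 7 lower (median -0.09), with summed CPM of 31.83 and 26.89 against 35.37, 34.43 and 29.38. The antioxidant genes under NRF2 were lower in 18 of 24 cases (median -0.16) and those of fatty acid oxidation in 13 of 20 (median -0.06), with 0 called in either list.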
